A study of Homo sapiens with 18 samples.

Results

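IFIT1, IFIT2, IFIT3 and IFIT5, the human genes for interferon-induced proteins with tetratricopeptide repeats, were followed in 18 libraries of sequenced poly(A) RNA from THP-1. THP-1 is a monocytic line from an acute myeloid leukaemia and carries MLL-AF9. The 4 genes were chosen by name from the 19784 genes of the deposited tables. The study varied PHF8, whose protein reads histone methylation through a PHD finger and removes it through a JmjC domain. In the second experiment, 6 libraries taken at day 3 came from derivatives named ERDD (genotype label PHF8DD, 4-OHT), ERPHF8 (genotype label PHF8, no treatment named) and ERAA (genotype label PHF8AA, 4-OHT), with 2 libraries each. 4-OHT is 4-hydroxytamoxifen, used at 100 nM to induce the PHF8DD and PHF8AA forms, and the labels do not spell out what ER, AA and DD stand for. In the first experiment, 12 libraries came from derivatives named PHF8 and F279S and from the parental line, wt, with 4 libraries each and no treatment named. F279S is known as a form of PHF8 without demethylase activity. All cells grew in DMEM with fetal bovine serum, and whether a derivative is 1 clone is not given in the sources used here. Each comparison with ERPHF8 is also one between cells with and without a 4-OHT label, so form and treatment cannot be told apart there.

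IFIT proteins are made after interferon or a viral infection and bind RNA directly. IFIT1 holds RNA whose cap lacks the ribose methylation of the host's own messages and keeps it from the ribosome, and IFIT3 binds IFIT1 and stabilises it. IFIT2 joins the same complexes and has been tied to cell death, while IFIT5 binds RNA that begins with an uncapped triphosphate. Their genes are classical targets of ISGF3, a complex that holds STAT2 and IRF9 and binds interferon-stimulated response elements.

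The letters of that element were looked for in the promoters of 3 of the 4 members. RefSeq windows on GRCh38.p14, 250 bases before to 50 bases after a transcript start, were matched by symbol. IFIT1, IFIT3 and IFIT5 had an entry, as did IFIT1B, a paralog that lies between IFIT3 and IFIT1. The core, GAAA followed by any 2 bases and a second GAAA (TTTC, any 2 bases and TTTC on the other strand), was searched on both strands. Each stretch below runs from 160 bases before the start to 20 bases after it, in the direction of transcription, and capitals mark the core.

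IFIT1, chr10:89392463-89392642, plus strand: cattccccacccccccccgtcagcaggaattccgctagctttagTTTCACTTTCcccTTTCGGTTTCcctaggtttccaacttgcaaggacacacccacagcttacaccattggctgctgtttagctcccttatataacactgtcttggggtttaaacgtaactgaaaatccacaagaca
IFIT3, chr10:89327837-89328016, plus strand: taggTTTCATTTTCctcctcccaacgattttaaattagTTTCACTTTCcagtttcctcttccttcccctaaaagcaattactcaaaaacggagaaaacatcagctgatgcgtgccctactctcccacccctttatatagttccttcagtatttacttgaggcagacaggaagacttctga
IFIT5, chr10:89414408-89414587, plus strand: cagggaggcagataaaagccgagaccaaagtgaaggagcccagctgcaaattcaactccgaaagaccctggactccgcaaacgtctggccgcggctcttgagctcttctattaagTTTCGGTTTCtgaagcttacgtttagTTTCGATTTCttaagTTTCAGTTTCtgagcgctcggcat
IFIT1B, chr10:89377896-89378075, plus strand: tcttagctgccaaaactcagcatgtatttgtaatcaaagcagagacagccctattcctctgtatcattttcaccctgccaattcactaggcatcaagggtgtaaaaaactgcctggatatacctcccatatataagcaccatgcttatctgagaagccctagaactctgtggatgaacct

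IFIT1 and IFIT3 each held 2 copies of the core within the 300-base window, IFIT5 held 3 and IFIT1B held 0. The 2 copies of IFIT1 began 116 and 103 bases before the transcript start, and those of IFIT3 began 156 and 122 bases before it. The 3 copies of IFIT5 lay closer, beginning 45, 19 and 4 bases before the start. A second IFIT3 start in the table also had 2 copies. A longer form, with G before the core and CT after it on the GAAA strand, was found 1 time in IFIT1 and 1 time at each IFIT3 start, and 0 times in IFIT5 and IFIT1B. Of 35116 windows in the table, 3.57% held at least 1 copy, 0.259% at least 2 and 0.037% at least 3, and 0.134% held the longer form. These are matches of letters, and no binding was measured.

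On hg38, as deposited, IFIT2 (chromosome 10, 89301955 to 89309276), IFIT3 (89327894 to 89340971), IFIT1B (89378056 to 89385205), IFIT1 (89392546 to 89406486) and IFIT5 (89414586 to 89421001) lie in this order on the plus strand. LIPA, the gene of lysosomal acid lipase, runs on the minus strand from 89213569 to 89414557. Its span therefore encloses 4 IFIT spans, and IFIT5 begins 28 bases beyond it and overlaps no other gene of the table. A read that falls in IFIT1, IFIT2 or IFIT3 also falls in LIPA.

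Levels are given in CPM, the reads over a gene's whole span per 1e6 reads of its library. IFIT levels were highest in ERDD cells for all 4 genes, then in ERPHF8 cells, then in ERAA cells, and lower in every library of the first experiment. IFIT1 stood at 228 and 225 CPM in ERDD libraries 1 and 2, 45.0 and 41.6 CPM in ERPHF8 libraries and 10.5 and 12.6 CPM in ERAA libraries. It stood at 3.95, 3.54, 3.62 and 4.04 CPM in PHF8 libraries 1 to 4, 4.72, 4.93, 1.81 and 1.75 CPM in F279S libraries, and 2.05, 1.29, 1.47 and 1.54 CPM in wt libraries. No 2 groups of the second experiment overlapped, and F279S was the one group that split, with libraries 1 and 2 above every PHF8 library and libraries 3 and 4 within the wt range. Bulk RNA cannot tell a change in the share of cells that make a message from a change in the RNA per cell.

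IFIT3, the stabiliser of IFIT1, stood at 203 and 199.6 CPM in ERDD libraries, 49.9 and 50.3 CPM in ERPHF8 libraries and 16.2 and 17.8 CPM in ERAA libraries. In the first experiment it had 8.46, 8.96, 5.58 and 6.62 CPM in PHF8 libraries, 5.45, 5.43, 3.30 and 4.00 CPM in F279S libraries and 4.06, 3.81, 3.38 and 3.46 CPM in wt libraries. Every PHF8 library lay above every F279S and wt library, while F279S and wt overlapped.

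IFIT2 had 101 and 97.4 CPM in ERDD libraries, 38.0 and 35.8 CPM in ERPHF8 libraries and 17.7 and 18.9 CPM in ERAA libraries. In the first experiment it had 4.21, 4.89, 5.45 and 5.95 CPM in PHF8 libraries, 6.84, 6.14, 4.30 and 5.73 CPM in F279S libraries and 5.31, 5.05, 5.09 and 5.97 CPM in wt libraries. Here the 3 groups of the first experiment overlapped one another.

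IFIT5, the member outside the LIPA span, had 19.0 and 18.7 CPM in ERDD libraries, 7.85 and 7.60 CPM in ERPHF8 libraries and 5.92 and 4.92 CPM in ERAA libraries. It had 3.39, 2.63, 3.04 and 2.61 CPM in PHF8 libraries, 2.38, 2.91, 2.07 and 2.29 CPM in F279S libraries and 1.60, 1.80, 1.75 and 2.36 CPM in wt libraries. PHF8 lay wholly above wt, and F279S overlapped both. The reads behind these values ran from 25 for IFIT1 in wt library 2, whose exact 95% Poisson interval was 0.83 to 1.9 CPM, to 9348 for IFIT1 in ERDD library 1. The intervals of IFIT1 in F279S library 1 (3.87 to 5.69 CPM) and library 3 (1.46 to 2.22 CPM) did not meet. Such intervals cover counting error only.

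**Figure D1:**
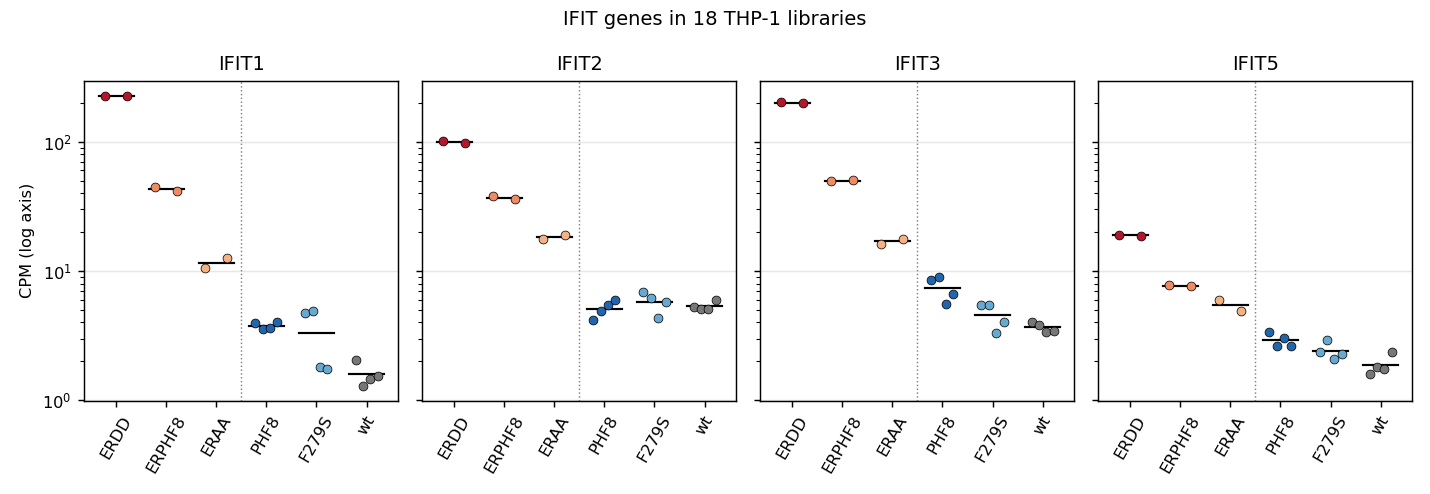
CPM of the 4 IFIT genes on a log axis, 1 point per library, with the group mean as a bar and the ER lines left of the dotted line. ERDD points lie highest for every gene, at 225 and 228 CPM for IFIT1, and F279S splits into 2 pairs for IFIT1.

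Between neighbours in the order of group means, ranges did not overlap from ERDD to ERPHF8 to ERAA to the first experiment for any of the 4 genes. Of all genes, 39% lay apart in this direction in ERDD against ERPHF8 and 41.9% in ERPHF8 against ERAA. No group is shared by the 2 experiments, so the step between them was not tested. The share of all genes that lay apart at that step was not counted. Within the first experiment the one neighbouring pair that did not overlap was PHF8 and F279S for IFIT3, as for 15.4% of genes in this direction. Summed over the 4 genes, the family made up 546 ± 7.26 CPM in ERDD, 138 ± 3.85 CPM in ERPHF8 and 52.3 ± 2.67 CPM in ERAA cells (SD, n = 2 each). It made up 19.2 ± 1.10 CPM in PHF8, 16.0 ± 4.02 CPM in F279S and 12.5 ± 0.797 CPM in wt cells (SD, n = 4 each).

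The make-up of the family differed between groups as well as its size. By RPKM over the gene span, the deposited measure per length, IFIT1 held 33.7% ± 0.175 of the family in ERDD, 23.6% ± 0.581 in ERPHF8 and 15.1% ± 1.38 in ERAA cells (SD, n = 2 each). It held 13.6% ± 0.770 in PHF8, 12.9% ± 4.58 in F279S and 8.02% ± 1.58 in wt cells (SD, n = 4 each). IFIT2 ran the other way in the ER lines, with 28.2% ± 0.341 in ERDD, 38.3% ± 0.492 in ERPHF8 and 45.7% ± 0.437 in ERAA cells, and it held 51.5% ± 0.864 in wt cells. Which gene leads depended on the length used. Per kilobase of GENCODE exon, IFIT3 led with 48.1% in ERDD, 46.5% in ERPHF8 and 41.5% in ERAA cells, and IFIT2 led in wt cells with 41.0%, against 37.3% for IFIT3.

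PHF8 RNA was checked in every group, since the study varied it. It averaged 1109 ± 14.8 CPM in ERDD, 1906 ± 8.51 CPM in ERPHF8 and 2150 ± 219 CPM in ERAA cells (SD, n = 2 each). It averaged 2020 ± 89.6 CPM in PHF8, 5381 ± 320 CPM in F279S and 50.6 ± 3.99 CPM in wt cells (SD, n = 4 each). Every derivative library held more PHF8 RNA than every wt library, though the ER lines had no wt library in their own experiment. The order of IFIT levels was not the order of PHF8 RNA. Over the 18 libraries, which share group and experiment, Pearson r between PHF8 and a member on log2(CPM + 0.5) ran from 0.15 to 0.27. Library totals were 40.6 to 41.3 M reads in the ER lines, 19.7 to 50.3 M in PHF8, 18.2 to 51.5 M in F279S and 19.4 to 42.3 M in wt. All 11 monocytic markers examined reached 1 CPM in every library. Their summed level was 2184 to 2222 CPM in ERDD, 1864 to 1870 CPM in ERPHF8 and 2363 to 2450 CPM in ERAA libraries, and 1717 to 2200 CPM in PHF8, 2244 to 2723 CPM in F279S and 2334 to 3040 CPM in wt libraries. Single monocytic markers differed by the limma test described below. In PHF8 against wt 1 was called higher and 4 lower, where 12.7% and 8.28% of all genes were. LYZ averaged 252.5 CPM in PHF8 and 855 CPM in wt cells. In ERPHF8 against ERAA 1 was called higher and 8 lower, where 29.7% and 24.1% of all genes were. In F279S against wt 0 were called. ERDD against ERAA called 3 higher and 5 lower, where 34.8% and 33.3% of all genes were. LYZ was higher there, at 260 CPM in ERDD and 208.5 CPM in ERAA cells. ERDD against ERPHF8 called 6 higher and 2 lower, where 24.8% and 28% of all genes were. PHF8 against F279S called 0 higher and 4 lower, where 12.2% and 7.92% were. Of 15 markers of other cells, 9 stayed under 1 CPM in every library. The summed level of these 15 was 10.6 to 10.9 CPM in ERDD, 8.68 to 8.81 CPM in ERPHF8, 10.97 to 11.3 CPM in ERAA, 10.3 to 32.7 CPM in PHF8, 6.75 to 37.0 CPM in F279S and 7.36 to 16.0 CPM in wt libraries, and the part of either marker list in the IFIT levels was not tested. In the first experiment, libraries 1 and 2 stood apart from libraries 3 and 4 across the transcriptome, and values within each pair are given below.

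ERDD against ERAA compares PHF8DD and PHF8AA cells under the same 4-OHT label. All 4 IFIT genes rose in ERDD cells, in a comparison that called 34.8% of 13831 genes higher and 33.3% lower. Fold changes are on log2(CPM + 0.5) with limma's test, adjusted by Benjamini-Hochberg over all genes tested, and a gene was called at an adjusted p below 0.05. IFIT1 averaged 226 ± 2.22 CPM in ERDD and 11.6 ± 1.46 CPM in ERAA cells (SD, n = 2 each), a log2 change of 4.24 ± 0.08 (SE, limma adjusted p = 1.4e-08). IFIT3 changed by 3.53 ± 0.05 on the log2 scale (limma adjusted p = 5.6e-09). IFIT2 changed by 2.41 ± 0.06 (limma adjusted p = 3.6e-08), and IFIT5 by 1.71 ± 0.09 (limma adjusted p = 2.6e-06). As ratios of mean CPM these were 19.6-fold, 11.8-fold, 5.42-fold and 3.48-fold. Among 13831 genes ranked by log2 change, IFIT1 stood at rank 5, IFIT3 at 13, IFIT2 at 34 and IFIT5 at 81. Each member's ERDD and ERAA libraries lay apart, as did 42.1% of genes in this direction. Nothing in the labels says that libraries came from separate cultures, so p-values measure the spread between these samples, which may be technical.

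ERPHF8 against ERAA gave the same direction with smaller changes, and it called 29.7% of genes higher and 24.1% lower. All 4 members rose. IFIT1 averaged 43.3 ± 2.35 CPM in ERPHF8 and 11.6 ± 1.46 CPM in ERAA cells, a log2 change of 1.87 ± 0.08 (SE, limma adjusted p = 5.7e-06). The log2 change was 1.53 ± 0.05 for IFIT3 (limma adjusted p = 3.1e-06) and 0.99 ± 0.06 for IFIT2 (limma adjusted p = 1.4e-05). IFIT5 had the smallest of the 4, 0.48 ± 0.09 (limma adjusted p = 0.0034), which is 1.42-fold by mean CPM. Groups lay apart for each member, as for 41.9% of genes in this direction.

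ERDD against ERPHF8, in which 24.8% of genes were called higher and 28% lower, also raised all 4. The log2 change was 2.37 ± 0.08 for IFIT1 (limma adjusted p = 9.1e-07) and 1.99 ± 0.05 for IFIT3 (limma adjusted p = 5.7e-07). It was 1.42 ± 0.06 for IFIT2 (limma adjusted p = 1.9e-06) and 1.24 ± 0.09 for IFIT5 (limma adjusted p = 5.2e-05). The order IFIT1, IFIT3, IFIT2, IFIT5 held in these 3 comparisons, in which each group serves 2 times. Groups lay apart for each member, as for 39% of genes in this direction.

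**Figure D2:**
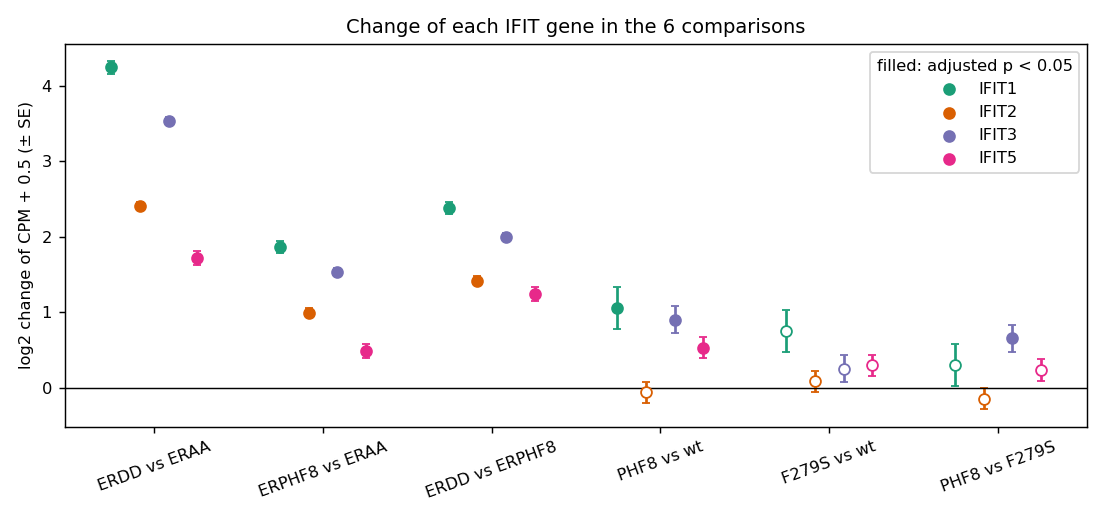
Log2 change of each IFIT gene with its SE in the 6 comparisons, filled where the adjusted p was below 0.05. In the ER lines all points are filled and fall in the order IFIT1, IFIT3, IFIT2, IFIT5, from 4.24 to 1.71 for ERDD against ERAA, and IFIT2 lies near 0 in the first experiment.

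PHF8 against wt compares the derivative named PHF8 with the parental line, so added PHF8 and other differences between the lines cannot be told apart. IFIT1, IFIT3 and IFIT5 rose in PHF8 cells and IFIT2 was not called, where 12.7% of 13683 genes were called higher and 8.28% lower. IFIT1 averaged 3.79 ± 0.248 CPM in PHF8 and 1.59 ± 0.328 CPM in wt cells (SD, n = 4 each), a log2 change of 1.05 ± 0.28 (SE, limma adjusted p = 0.019). IFIT3 averaged 7.41 ± 1.58 CPM in PHF8 and 3.68 ± 0.312 CPM in wt cells, a change of 0.90 ± 0.18 (limma adjusted p = 0.0034). IFIT5 averaged 2.92 ± 0.374 CPM in PHF8 and 1.88 ± 0.331 CPM in wt cells, a change of 0.53 ± 0.14 (limma adjusted p = 0.019). IFIT2 averaged 5.12 ± 0.749 CPM in PHF8 and 5.35 ± 0.424 CPM in wt cells, with a log2 difference of -0.06 ± 0.14 (limma adjusted p = 0.82). The groups lay apart for the 3 called members, as for 15.3% of genes in this direction. The IFIT1 call was lost without PHF8 library 1 (log2 1.03, limma adjusted p = 0.0503) or library 4 (1.02, 0.0514). The IFIT5 call was lost without PHF8 library 1 (0.46, 0.0644), PHF8 library 3 (0.51, 0.0536) or wt library 1 (0.47, 0.0547). The IFIT3 call held without any 1 library. Counts of called genes depended on the pairing of libraries: 5670 genes were called with the replicate block and 2874 without it, and with the block 22.4% were called higher and the same 3 members were called.

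F279S against wt called 2 genes in all, 0.0146% of those tested, and 0 of the 4 IFIT genes by limma, with 1 at an unadjusted p below 0.05 and 0 called by voom. IFIT1 averaged 3.30 ± 1.76 CPM in F279S and 1.59 ± 0.328 CPM in wt cells, a log2 difference of 0.75 ± 0.28 (limma adjusted p = 0.64). The other members differed by 0.08 ± 0.14 for IFIT2, 0.25 ± 0.18 for IFIT3 and 0.29 ± 0.14 for IFIT5 on the log2 scale. With the replicate block 298 genes were called, 1.33% higher, and 0 of the 4 members were among them.

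PHF8 against F279S, in which 12.2% of genes were called higher and 7.92% lower, called IFIT3 alone of the 4. IFIT3 averaged 7.41 ± 1.58 CPM in PHF8 and 4.55 ± 1.07 CPM in F279S cells, a log2 change of 0.65 ± 0.18 (limma adjusted p = 0.021), and its groups lay apart, as for 15.4% of genes in this direction. The call was lost without PHF8 library 1 (0.58), PHF8 library 2 (0.56), F279S library 3 (0.52) or F279S library 4 (0.60). IFIT1 differed by 0.30 ± 0.28, IFIT2 by -0.15 ± 0.14 and IFIT5 by 0.23 ± 0.14 on the log2 scale. With the replicate block 5620 genes were called against 2750 without it, 23.2% higher, and IFIT3 was again the one member called (limma adjusted p = 0.0005).

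Within each pair of libraries the members did not all behave alike. In PHF8 against wt the log2 change was 0.99 in libraries 1 and 2 and 1.11 in libraries 3 and 4 for IFIT1, and 1.06 and 0.75 for IFIT3. For IFIT5 it was 0.67 in libraries 1 and 2 and 0.39 in libraries 3 and 4, where it was not called (limma adjusted p = 0.091). These pairs called 27.3% and 23.8% of genes higher. In F279S against wt, libraries 1 and 2 alone called IFIT1 (1.32, limma adjusted p = 6.9e-06), IFIT3 (0.42, 0.022) and IFIT5 (0.51, 0.0495), where 7.45% of genes were called higher. Libraries 3 and 4 alone gave 0.19, 0.08 and 0.08 for the same genes and called none of the 4, at 0.0439% of genes called higher. In PHF8 against F279S, IFIT3 was higher in PHF8 in both pairs, by 0.63 and 0.67. IFIT1 differed by -0.33 in libraries 1 and 2 and rose by 0.92 in libraries 3 and 4 (limma adjusted p = 0.0021), where 20.3% of genes were called higher. IFIT2 fell by 0.47 in libraries 1 and 2 (limma adjusted p = 0.0038), which called 29.4% of genes higher and 24.4% lower, and differed by 0.18 in libraries 3 and 4. The difference between the pairs was itself tested as an interaction in limma, adjusted over all genes. It was called for IFIT1 in F279S against wt, where 0.899% of genes were called in either direction, and for IFIT1 and IFIT2 in PHF8 against F279S, where 21.8% were. In PHF8 against wt it was called for 0 of the 4 members, with 0 at an unadjusted p below 0.05, against 30.5% of genes.

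**Figure D3:**
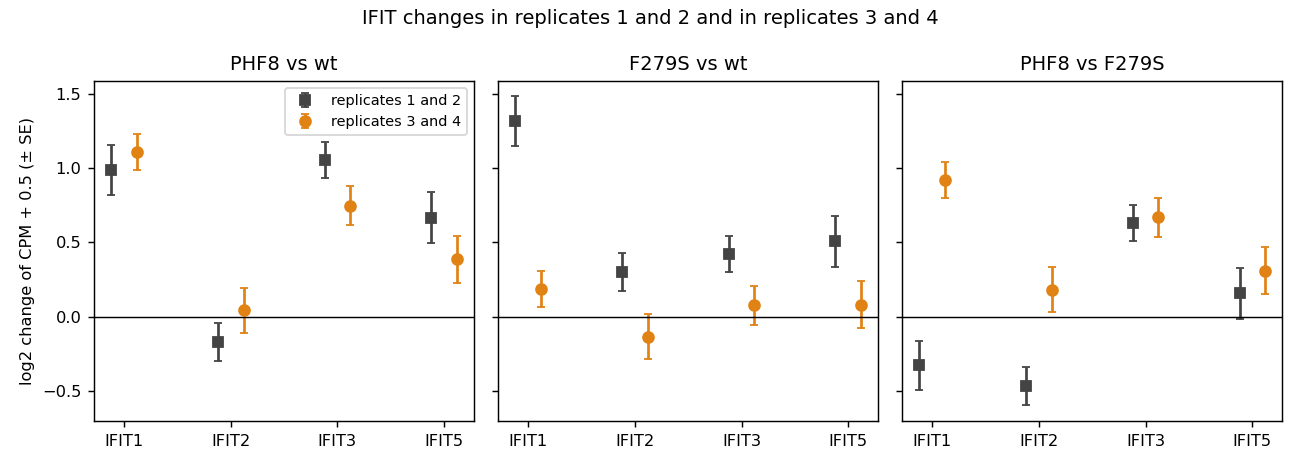
Log2 change of each IFIT gene with its SE, computed in libraries 1 and 2 (squares) and in libraries 3 and 4 (circles) of the first experiment. The pairs lie far apart for IFIT1 in F279S against wt, at 1.32 and 0.19, and close together for IFIT3 in PHF8 against F279S, at 0.63 and 0.67.

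IFIT2 was the one member not called in PHF8 against wt, so members were also set against each other within each library, where depth cancels. These ratios were chosen after the values were seen and are given as a description. The ratio of IFIT3 to IFIT2 reads averaged 1.5 ± 0.499 in PHF8, 0.787 ± 0.0768 in F279S and 0.691 ± 0.0862 in wt libraries (SD, n = 4 each). It ran from 1.03 to 2.01 within PHF8. PHF8 libraries 1 and 2 had 8.46 and 8.96 CPM of IFIT3 and 4.21 and 4.89 CPM of IFIT2. In PHF8 libraries 3 and 4 these were 5.58 and 6.62 CPM, and 5.45 and 5.95 CPM. The ratio of IFIT1 to IFIT2 reads averaged 0.751 ± 0.128 in PHF8, 0.555 ± 0.231 in F279S and 0.297 ± 0.0617 in wt libraries. PHF8 and wt did not overlap for either ratio. An exact permutation of libraries gave each p = 0.0286, the smallest possible with 4 against 4. That p follows from the lack of overlap, so it adds nothing to it, and the permutation ignored the library pairs. The adjusted p of the permutation was 0.129 over 18 tests of ratios, so neither was called. In the ER lines the ratio of IFIT1 to IFIT2 reads was 2.28 ± 0.0394 in ERDD, 1.17 ± 0.0138 in ERPHF8 and 0.629 ± 0.0516 in ERAA libraries (SD, n = 2 each), without overlap.

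The reads counted for LIPA contain those of the 3 IFIT genes inside its span. As deposited, LIPA averaged 716 ± 9.92 CPM in ERDD, 314 ± 6.15 CPM in ERPHF8 and 247 ± 0.874 CPM in ERAA cells. The IFIT spans held 73.6% of these reads in ERDD, 41.5% in ERPHF8 and 19.0% in ERAA cells, and 10.8% in PHF8, 8.83% in F279S and 8.22% in wt cells. With them taken out, LIPA averaged 189 ± 2.84 CPM in ERDD, 183.4 ± 2.5 CPM in ERPHF8 and 200.1 ± 2.5 CPM in ERAA cells (SD, n = 2 each). The log2 change of LIPA in ERDD against ERAA was 1.53 ± 0.04 as deposited (limma adjusted p = 5.3e-08) and -0.08 ± 0.04 without the IFIT reads (limma adjusted p = 0.084). In ERPHF8 against ERAA it was 0.34 ± 0.04 as deposited and -0.13 ± 0.04 without them (limma adjusted p = 0.025), a reversed direction. In PHF8 against wt LIPA was called as deposited (0.23, limma adjusted p = 0.028) and not without the IFIT reads (0.19, limma adjusted p = 0.0515). The call as deposited was also lost on leaving out any library but wt library 4 (log2 0.21 to 0.24). With the replicate block it was called without them too (limma adjusted p = 0.013).

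**Figure D4:**
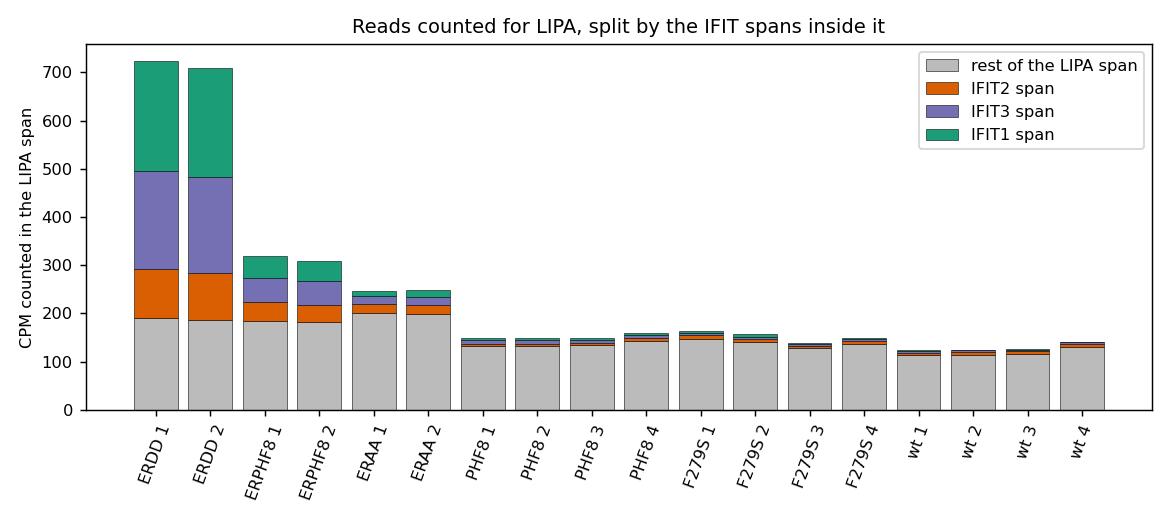
CPM counted over the LIPA span in each library, stacked into the reads of the IFIT1, IFIT3 and IFIT2 spans inside it and the rest. The rest stays between 182 and 202 CPM in the 6 ER libraries while the IFIT spans make up 73.6% of the ERDD bars.

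The reverse, reads of LIPA counted in an IFIT gene, was looked at through IFIT1B, which lies in the same span. IFIT1B had 0 reads in 13 of 18 libraries and at most 4 reads, in ERDD library 1 (0.0975 CPM). A count of 0 allows up to 3 reads, which is 0.0582 to 0.164 CPM by library. All 12 libraries of the first experiment were at 0. There, 3 reads in a library, scaled to the longer span of IFIT1, would be 3.21% to 23.4% of that library's IFIT1 reads, so single libraries set only a loose limit. Over the 12 libraries together, 3 reads of IFIT1B would scale to 0.568% of IFIT1 reads, 0.153% of IFIT2 reads and 0.294% of IFIT3 reads. The scaling takes LIPA reads to fall evenly. They did not, since the rest of the LIPA span held 14.0 to 44.4 reads per kilobase in these libraries. IFIT1B therefore limits only a background like its own, and LIPA exons inside the IFIT spans were not checked.

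The genes of interferon signalling that lie upstream of IFIT transcription were described from lists. Of 7 genes for ISGF3 and the type I interferon receptor, 3 rose and 3 fell in ERDD against ERAA, 3 rose and 3 fell in ERPHF8 against ERAA, and 4 rose in ERDD against ERPHF8. Of all genes, 34.8%, 29.7% and 24.8% were called higher and 33.3%, 24.1% and 28% lower in these comparisons, so the counts of 3 among 7 lie near the share over all genes. The median log2 change of the 7 was -0.12, 0.03 and 0.13 in the same order. IRF9, a DNA-binding subunit of ISGF3, averaged 77.5 ± 0.085 CPM in ERDD and 30.2 ± 2.05 CPM in ERAA cells (SD, n = 2 each), a log2 change of 1.35 ± 0.06. STAT2, another subunit, averaged 79.4 ± 1.25 CPM in ERDD and 52.8 ± 4.19 CPM in ERAA cells, a log2 change of 0.58 ± 0.06. Both also rose in ERPHF8 against ERAA (IRF9 0.68, STAT2 0.19) and in ERDD against ERPHF8 (0.67 and 0.39). The 3 that fell in both comparisons with ERAA were the receptor gene IFNAR1 and the kinase genes JAK1 and TYK2. In ERDD against ERAA they changed by -0.25, -0.24 and -0.12, and TYK2 rose by 0.13 in ERDD against ERPHF8. The counts and medians of the 7 join both kinds of gene. Among PHF8, F279S and wt cells limma called 0 of these 7 in each comparison over all 12 libraries. At an unadjusted p below 0.05 there were 0, and voom called 0. Within 1 pair of libraries some were called. In F279S against wt, libraries 1 and 2 called 3 higher (7.45% of all genes were) and libraries 3 and 4 called 0. In PHF8 against wt, libraries 1 and 2 called 2 higher (27.3% of all genes). Libraries 3 and 4 called 2 lower there (18.3%). In PHF8 against F279S, libraries 1 and 2 called 1 higher and 2 lower (29.4% and 24.4%). Libraries 3 and 4 called 1 lower there (14.9%). Of 10 interferon genes, 0 passed the filter on low values and the highest value was 0.145 CPM, for IFNA4.

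Among 11 genes of RNA sensing, 8 rose and 2 fell in ERDD against ERAA, 8 rose and 1 fell in ERPHF8 against ERAA, and 6 rose and 2 fell in ERDD against ERPHF8, beside the same shares over all genes. Their median log2 change was 0.47, 0.37 and 0.19 in that order. IRF7, a transcription factor for interferon genes, averaged 128 ± 4.59 CPM in ERDD and 25.0 ± 0.875 CPM in ERAA cells, a log2 change of 2.33 ± 0.05. EIF2AK2, the kinase PKR, changed by 1.92 ± 0.04, and DDX58, the sensor RIG-I of uncapped RNA, by 1.70 ± 0.05. In PHF8 against wt 2 of the 11 rose and 1 fell, near the 12.7% and 8.28% over all genes, with DDX58 at 20.6 ± 0.852 CPM in PHF8 and 11.4 ± 1.05 CPM in wt cells (log2 0.83 ± 0.08). EIF2AK2 changed by 0.37 ± 0.10, and IRF3, which carries the sensor's signal, by -0.34 ± 0.10. Here libraries 1 and 2 alone called 5 higher and 1 lower, median 0.26, where 27.3% and 24.1% of all genes were. The pair of libraries 3 and 4 called 2 higher and 5 lower, median -0.17, where 23.8% and 18.3% were. In PHF8 against F279S DDX58 rose (0.72 ± 0.08) and IRF3 fell (-0.32 ± 0.10). In F279S against wt limma called 0 of the 11, with 1 at an unadjusted p below 0.05 and 0 by voom. Within that comparison, libraries 1 and 2 alone called 3 higher, where 7.45% of all genes were. Libraries 3 and 4 alone called 0.

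The making and methylation of the cap were covered by 5 genes. Of these, CMTR1 and CMTR2 add the ribose methylation whose absence IFIT1 reads. CMTR1, which methylates the ribose of the first transcribed base, averaged 118 ± 0.702 CPM in ERDD and 58.5 ± 2.85 CPM in ERAA cells (log2 1.01 ± 0.05) and was the one of the 5 that rose there. CMTR2, which methylates the next base, fell by 0.24 ± 0.06. In ERPHF8 against ERAA 3 of the 5 rose, CMTR1 by 0.39 ± 0.05, RNGTT by 0.23 ± 0.06 and RNMT by 0.22 ± 0.08, and in ERDD against ERPHF8 2 rose and 3 fell. With 34.8%, 29.7% and 24.8% of all genes called higher in the 3 comparisons, counts among 5 genes cannot be set apart from the share over all genes. Among PHF8, F279S and wt cells limma called 0 of the 5 in each comparison, with 0 at an unadjusted p below 0.05 and 0 by voom.

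Other interferon-stimulated genes moved beside the family. In ERDD against ERAA 49 of 50 tested rose and 1 fell, with a median log2 change of 1.92, against -0.000863 over all 13831 genes. Their median was 0.77 in ERPHF8 against ERAA (44 rose, 2 fell) and 1.2 in ERDD against ERPHF8 (49 rose, 0 fell). Of all genes, 34.8%, 29.7% and 24.8% were called higher in these 3 comparisons, and 33.3%, 24.1% and 28% lower. In PHF8 against wt 21 of 49 rose and 2 fell, median 0.32, where 12.7% of all genes were called higher and 8.28% lower. In PHF8 against F279S 12 rose and 2 fell, median 0.06, where 12.2% were called higher and 7.92% lower. There, libraries 1 and 2 alone called 18 higher and 16 lower, median -0.04, where 29.4% and 24.4% of all genes were. The pair of libraries 3 and 4 called 22 higher and 6 lower, median 0.22, where 20.3% and 14.9% were. In F279S against wt limma called 0 of 49 (10 at an unadjusted p below 0.05, 0 by voom), median 0.18, while the replicate block called 5 higher, where 1.33% of all genes were. Libraries 1 and 2 alone called 28 higher and 1 lower, where 7.45% of all genes were called higher, and libraries 3 and 4 alone called 1 higher and 0 lower, where 0.0439% were called higher. MX1, a GTPase that blocks viruses, averaged 460 ± 3.65 CPM in ERDD and 17.6 ± 0.0336 CPM in ERAA cells (log2 4.67 ± 0.04). In PHF8 against wt the 3 of smallest p were OAS1 (1.69 ± 0.16), RSAD2 (1.14 ± 0.11) and PLSCR1 (0.51 ± 0.05).

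**Figure D5:**
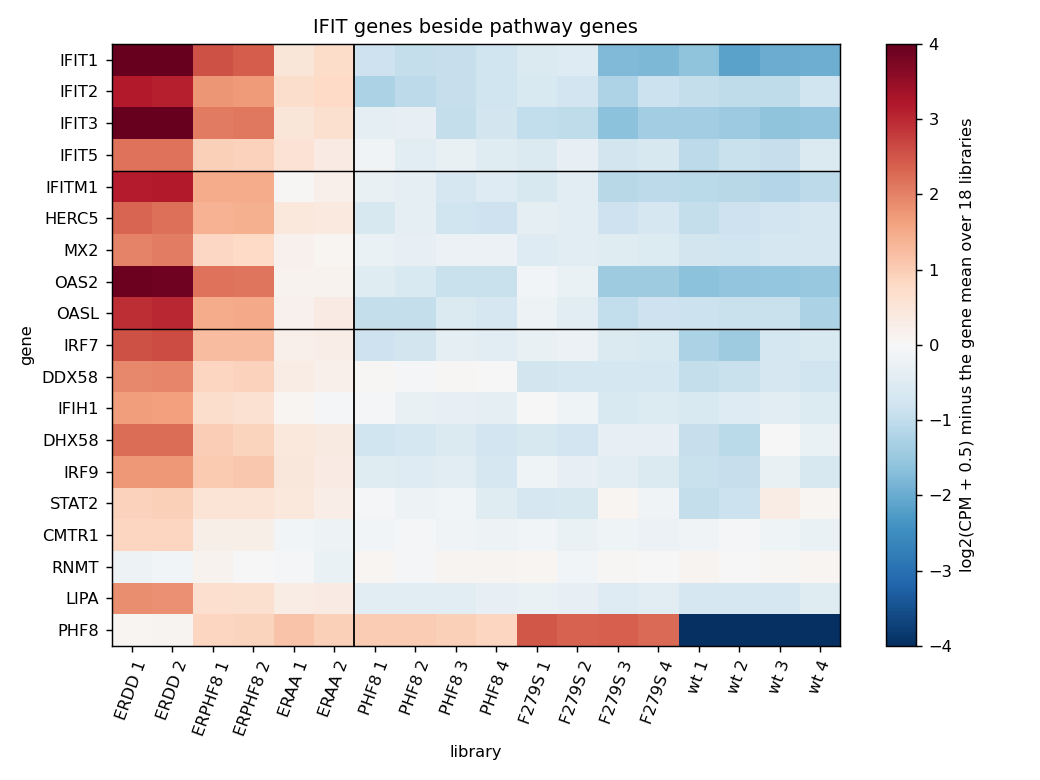
Log2(CPM + 0.5) minus each gene's mean over the 18 libraries, with colours ending at 4 either side of 0, for the IFIT genes, the 5 genes most like them, genes of the pathway, LIPA and PHF8. The IFIT genes and the 5 below them are darkest in ERDD, as at 228 and 225 CPM for IFIT1, while RNMT stays near its mean and PHF8 is lowest in wt.

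Over the 18 libraries, Pearson r between members ran from 0.965 (IFIT2 with IFIT5) to 0.991 (IFIT1 with IFIT3) on log2(CPM + 0.5). Of 13499 other genes, the 5 with the highest mean r with the 4 members were IFITM1 (0.983), HERC5 (0.980), MX2 (0.980), OAS2 (0.977) and OASL (0.977). The libraries share group and experiment, so these are descriptions over 6 groups more than over 18 independent points. IFITM1, a membrane protein that hinders viral entry, averaged 213 ± 3.10 CPM in ERDD, 66.1 ± 0.399 CPM in ERPHF8 and 25.4 ± 2.03 CPM in ERAA cells, and 16.9 ± 2.0 CPM in PHF8, 13.4 ± 3.12 CPM in F279S and 10.7 ± 0.331 CPM in wt cells. Its span overlaps that of IFITM2, with which it shares reads.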

How the data were processed

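Poly(A) RNA was selected and turned into 18 libraries with the NEBNext Ultra II kit for a NextSeq instrument, per the labels' protocols. The build was hg38 and the tools named were STAR 2.7.0c, SAMtools 1.9 and DESeq2, per the submitters' processing notes. What counted the reads, its strand setting and its annotation were not given in the sources used here. RPKM per gene was deposited by the authors, with the whole gene span, including introns, as the length. CPM was RPKM times that span in kilobases, and each value came out as a whole number of reads within 0.001 reads, which gave the library totals. Genes with at least 1 CPM in at least 4 (first experiment) or 2 (ER lines) libraries were fitted with limma 3.58.1 in R 4.3.3 on log2(CPM + 0.5) with an intensity trend, each experiment apart and group as the only term. This scale understates changes of genes near 1 CPM. The test was run first on simulated data that held no difference between library pairs, so that run does not cover the pairs seen here. Reads of a span count introns and any overlapping gene, so IFIT1, IFIT2 and IFIT3 share theirs with LIPA. Replicate numbers paired the libraries of the first experiment: same-numbered libraries deviated together from their group means, r from 0.48 to 0.91. Libraries with the neighbouring number (1 with 2, 3 with 4) did so too, r from 0.23 to 0.82. The numbers therefore mark a split of libraries 1 and 2 from 3 and 4 at least. Libraries 1 and 2 went against 3 and 4, r from -0.86 to -0.35, which follows in part from taking deviations from group means. Replicates differed by more than sampling noise (chi-square per gene at least 1.86). Exon lengths came from GENCODE 29, whose IFIT2 start differs from the deposited one. Genes named besides the 4 members were PHF8, genes that overlap a member or lie between members, the 3 of smallest p of each list in a comparison (some given by count alone or not reported here), and the 5 genes most like the members. Members and lists were chosen with earlier results of these data known. A protein comparison and an IFIT2 promoter are not analysed here.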

Additional observations from a re-analysis of the deposited data

Results flagged for a closer look

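The effect of the derivative on IFIT1 and IFIT2 differed between the pairs of libraries of the first experiment, by limma's interaction of group and pair over all 13683 genes. For IFIT1 in F279S against wt, the log2 change in libraries 1 and 2 exceeded that in libraries 3 and 4 by 1.13 ± 0.23 (SE, limma adjusted p = 0.039), where 0.899% of genes were called in either direction. For IFIT1 in PHF8 against F279S the difference was -1.25 ± 0.23 (limma adjusted p = 0.003), and for IFIT2 it was -0.651 ± 0.20 (limma adjusted p = 0.035), where 21.8% of genes were called. These 3 results share the F279S libraries, in which IFIT1 had 4.72 and 4.93 CPM in libraries 1 and 2 and 1.81 and 1.75 CPM in libraries 3 and 4. The part of the library pair in this was not tested.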

How the results depend on the processing

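In the ER lines all 12 or 13 alternatives per gene and comparison kept each member's call and direction, and IFIT1 in ERDD against ERAA ranged from 4.12 to 4.36 (log2). In the first experiment IFIT3 in PHF8 against wt kept its call under all 19 alternatives (0.75 to 1.06). One of them, taking out the IFIT1B read density, subtracts 0 in the first experiment and tests nothing there. Fits within 1 pair of libraries changed calls. In libraries 1 and 2, F279S against wt gained IFIT1 (1.32), IFIT3 (0.42) and IFIT5 (0.51), and PHF8 against F279S gained IFIT2 (-0.47). In libraries 3 and 4, PHF8 against wt lost IFIT5 (0.39) and PHF8 against F279S gained IFIT1 (0.92). The cause was not tested. Genes called in PHF8 against wt numbered 5670 with the replicate block, 5595 with the pair as a factor, 7029 in libraries 1 and 2 and 5765 in libraries 3 and 4, against 2874. In F279S against wt they numbered 298, 298, 1943 and 12, against 2, and in PHF8 against F279S 5620, 5565, 7366 and 4821, against 2750. The block changed no call of the 4 members. Leaving out 1 library, log2 changes ranged from 0.98 to 1.15 for IFIT1, 0.46 to 0.62 for IFIT5 (PHF8 against wt) and 0.52 to 0.77 for IFIT3 (PHF8 against F279S). Called genes then ranged from 4864 (without ERPHF8 library 2) to 8694 in ERPHF8 against ERAA, against 7436. In ERDD against ERPHF8 they ranged from 4254 to 5199, against 7305, with 4458 without ERDD library 1, 4254 without ERDD library 2 and 4461 without ERPHF8 library 2. Without the IFIT reads the LIPA change lost its call in ERDD against ERAA (-0.084), and in ERPHF8 against ERAA it reversed and was called lower (-0.13), through the reads taken out. The ER replicate numbers did not pair libraries (r from -0.34 to 0.10). The replicate block gave 9068, 6900 and 6801 calls in ERDD against ERAA, ERPHF8 against ERAA and ERDD against ERPHF8, and crossing the ERAA numbers, a choice made after seeing the data, gave 7784 in ERPHF8 against ERAA. Depth is lowest for IFIT1 in wt (25 to 62 reads per library) and for IFIT5 in every other group, with 53 to 118 in F279S and 64 to 153 in PHF8.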
